A study of Sus scrofa with 6 samples.

Results

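Purinergic receptors and ectonucleotidases were examined in abdominal aorta of Wisconsin Miniature Swine (WMS), in pools with atherosclerotic lesions and in lesion-free pools. The genes were listed by name: the receptors P2Y12R, P2RX1, P2RX4, P2RX7, P2RY1, P2RY2, P2RY6 and P2RY14, and the enzymes ENTPD1 and NT5E. Of these 10 genes, 6 were found by their symbol among the 22861 genes of the deposited table: P2Y12R, P2RX4, P2RY1, P2RY14, ENTPD1 and NT5E. A further 3 were found only by their identifier in a reference table of gene names: P2RX1, which carried no symbol, P2RX7, written as P2X7R, and P2RY6, written as P2Y6R. Their values are given beside the others but stay out of the counts of the 6. P2RY2 was not matched to a row and is not analysed here. The list was chosen from differences seen in these same pools, so the lesion against lesion-free values of its genes are a description and carry no test.

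The lesion group was the FH line of WMS, animals with familial hypercholesterolaemia, in which inherited defects keep cholesterol in the blood high, and the lesion-free group was WMS normal. Each group comprised 11 animals, whose RNA was mixed to give 3 pools, here lesion replicates 1, 2 and 3 and lesion-free replicates 4, 5 and 6. Which animals entered which pool was not given, so p-values measure the spread between pools and not between animals. Lesions and the FH line occur together in every lesion pool, and their contributions cannot be told apart. The labels used here give no sex, age, diet or batch per pool.

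Cells release ATP and other nucleotides when they are stressed, activated or damaged. P2X receptors are ion channels opened by ATP, and P2Y receptors are G protein-coupled receptors for ADP, ATP, UTP, UDP or UDP-sugars. On the cell surface, CD39, the product of ENTPD1, degrades ATP and ADP to AMP, and CD73, the product of NT5E, turns AMP into adenosine, which has receptors of its own. In the artery wall, nucleotides act on smooth muscle tone, endothelium, platelets and leukocytes.

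Total counts were 4650176, 10055160 and 11442433 in lesion replicates 1 to 3, and between 8492673 and 10826175 in the lesion-free pools. Lesion replicate 1 was the shallowest library, and 92 genes were at 0 there while reaching at least 5 CPM (counts scaled to a common library size) in each of the other 5 pools. The same measure gave between 0 and 12 genes in the other pools. CPM carry no correction for gene length, so levels are compared between pools and not between genes. A count of 3, taken as the floor of detection, was worth 0.576 CPM in that shallow library, against 0.268 to 0.359 CPM elsewhere.

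P2Y12R and NT5E were the listed genes called higher in lesion pools, 2 of the 6, and 0 of the 6 were called lower. Over all 11673 genes tested with limma, 0.968% were called higher and 0.0771% lower at an adjusted p of 0.05, and their median log2 fold was -0.00. The lesion and lesion-free pools did not overlap for P2Y12R, P2RX4, ENTPD1 and NT5E, all of them higher in lesion, and overlapped for P2RY1 and P2RY14. Over all tested genes, 10.4% did not overlap with lesion higher and 9.01% with lesion lower. Because these genes were chosen by this contrast, their counts are set beside those shares without a reading. All 6 passed the filter on low counts, and so did the 3 genes found by identifier. The filter was 1.002 CPM, on plain library totals, in at least 3 pools. P2Y12R and P2RY6 reached that level in the 3 lesion pools only, so their entry rested on the group where they were high. In this bulk tissue, more cells of a type and more RNA per cell cannot be told apart.

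P2Y12R encodes the ADP receptor through which platelets are activated and which microglia also carry. It had 106, 170 and 181 counts in lesion replicates 1, 2 and 3, against 0, 0 and 2 counts in lesion-free replicates 4, 5 and 6. On the CPM scale this was 20.4, 15.2 and 16.5 CPM in the lesion pools, against 0, 0 and 0.203 CPM in the lesion-free pools. Every lesion pool held P2Y12R well above the floor of 3 counts, and every lesion-free pool lay under it. The means were 17.4 ± 2.70 CPM over the lesion pools and 0.0677 ± 0.117 CPM over the lesion-free ones (SD, n = 3 each). Summed over pools, 457 lesion counts stood against 2 lesion-free counts, a ratio of 229 once scaled to depth, with an exact 95% interval of 63.1 to 1899 that covers counting error only. The fitted log2 fold was 7.49 with a standard error of 1.63, and its size depends on the 0.5 counts added before the log. It lay between 7.09 and 8.21 when each pool was left out in turn, but without any 1 pool the gene was no longer past the threshold (0 of 6 fits).

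**Figure D1:**
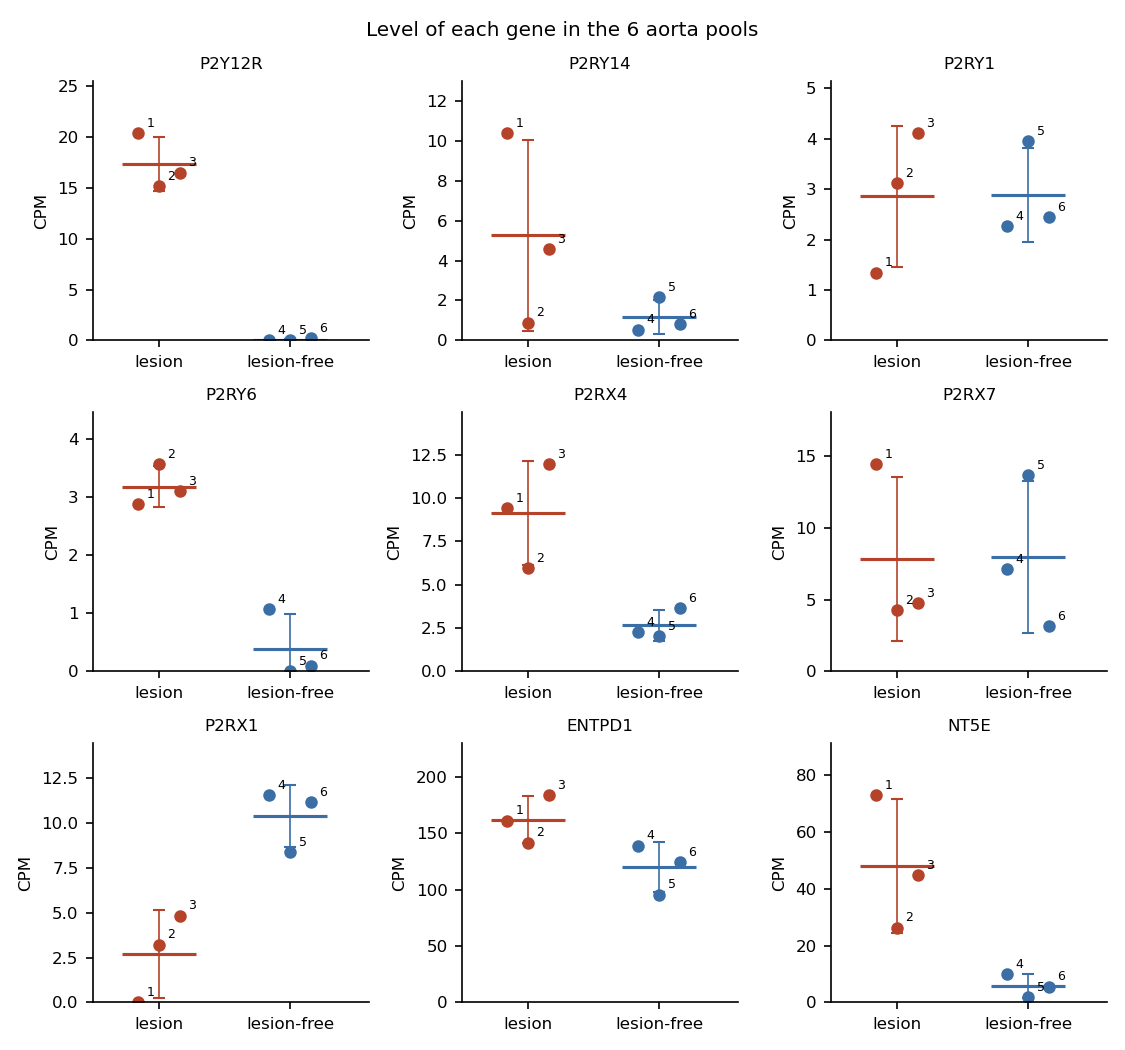
Levels of the 9 listed genes with a row, in CPM on the vertical axis of each panel, with lesion pools in red on the left and lesion-free pools in blue on the right. Each dot is 1 pool labelled with its replicate number, the line is the group mean and the bar is the SD (n = 3). P2Y12R lies between 15.2 and 20.4 CPM in lesion pools and at or under 0.203 CPM in lesion-free pools, and the P2RY1 and P2RX7 groups overlap.

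The other P2Y receptors differed among themselves. P2RY14, the receptor for UDP-glucose and related UDP-sugars, had 54, 10 and 50 counts in the lesion pools, against 5, 18 and 8 counts in the lesion-free pools. Lesion replicate 2 stood below lesion-free replicate 5, and the means were 5.28 ± 4.78 CPM in lesion and 1.17 ± 0.866 CPM in lesion-free ones (SD, n = 3 each). The log2 fold of P2RY14 was 1.44 (SE 1.36), so its difference was about the size of its error.

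P2RY1, the second ADP receptor of platelets, had 7, 35 and 45 counts in lesion pools, against 21, 33 and 24 counts in lesion-free pools. The groups overlapped, with means of 2.86 ± 1.40 CPM in lesion and 2.89 ± 0.929 CPM in lesion-free ones (SD, n = 3 each). The log2 fold of P2RY1 was 0.11 (SE 0.92), an error that covers changes of either sign.

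P2RY6, a receptor for UDP, had 15, 40 and 34 counts in lesion pools, against 10, 0 and 1 counts in lesion-free pools. Its CPM were 2.88, 3.57 and 3.10 in lesion and 1.08, 0 and 0.102 in lesion-free pools. The groups did not overlap, and lesion-free replicates 5 and 6 lay under the floor. The log2 fold was 3.92 (SE 1.74), and P2RY6 was not called.

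Among the ATP-gated channels, P2RX4, which is found at the plasma membrane and in lysosomes of macrophages, was higher in every lesion pool. It had 49, 67 and 131 counts in lesion pools, against 21, 17 and 36 counts in lesion-free pools. This was 9.42, 5.98 and 11.95 CPM in lesion and 2.26, 2.04 and 3.66 CPM in lesion-free pools. The lowest lesion pool stood above the highest lesion-free pool. The log2 fold of P2RX4 was 1.70 (SE 0.78), and it was not called.

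P2RX7, the channel that triggers inflammasome activation in macrophages at high ATP, had 75, 48 and 52 counts in lesion pools, against 66, 114 and 31 counts in lesion-free pools. Lesion replicate 1, at 14.4 CPM, and lesion-free replicate 5, at 13.7 CPM, were its highest pools, and the groups overlapped. The means were 7.81 ± 5.72 CPM in lesion and 7.97 ± 5.31 CPM in lesion-free ones (SD, n = 3 each), with a log2 fold of -0.24 (SE 0.65). P2RX7 overlaps IFT81 in the reference annotation. The row matched to IFT81 by identifier had 71, 17 and 29 counts in lesion and 29, 14 and 39 counts in lesion-free pools, with a log2 fold of -0.01. A second row, which carries the symbol IFT81, had 0, 0 and 3 counts in lesion and 14, 4 and 2 counts in lesion-free pools and was not tested. The counting strand is not stated, so reads shared by P2RX7 and IFT81 cannot be assigned to either.

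P2RX1, the ATP-gated channel of arterial smooth muscle and platelets, ran the other way. It had 0, 36 and 53 counts in lesion pools, against 107, 70 and 110 counts in lesion-free pools. On the CPM scale this was 0, 3.21 and 4.83 in lesion and 11.5, 8.39 and 11.2 in lesion-free pools. Every lesion pool stood below every lesion-free pool, and lesion replicate 1, the shallow library, had none. The log2 fold was -2.55 (SE 1.17), and P2RX1 was not called. Without lesion replicate 1 the log2 fold was -1.38. Summed smooth muscle markers were also lower in lesion pools, as given further on, and their part in the P2RX1 values was not tested.

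NT5E, which encodes CD73, had 380, 295 and 491 counts in lesion pools, against 93, 15 and 55 counts in lesion-free pools. This was 73.0, 26.3 and 44.8 CPM in lesion and 10.03, 1.80 and 5.59 CPM in lesion-free pools. The lowest lesion pool was above the highest lesion-free pool, while the pools varied widely within both groups. The means were 48.0 ± 23.5 CPM in lesion and 5.80 ± 4.12 CPM in lesion-free ones (SD, n = 3 each). The log2 fold of NT5E was 3.08 (SE 0.69), or 8.47-fold. It lay just inside the threshold, and in the fits that left out 1 pool its log2 fold ran between 2.49 and 3.61, with the gene past the threshold in 2 of 6, those without lesion replicate 1 or lesion replicate 2.

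ENTPD1, which encodes CD39, had 839, 1590 and 2015 counts in lesion pools, against 1291, 799 and 1228 counts in lesion-free pools. Scaled to depth this was 161, 142 and 184 CPM in lesion and 139, 95.7 and 125 CPM in lesion-free pools. The groups did not overlap, but lesion replicate 2 stood close above lesion-free replicate 4. The log2 fold of ENTPD1 was 0.44 (SE 0.26), or 1.36-fold, and it was not called.

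**Figure D2:**
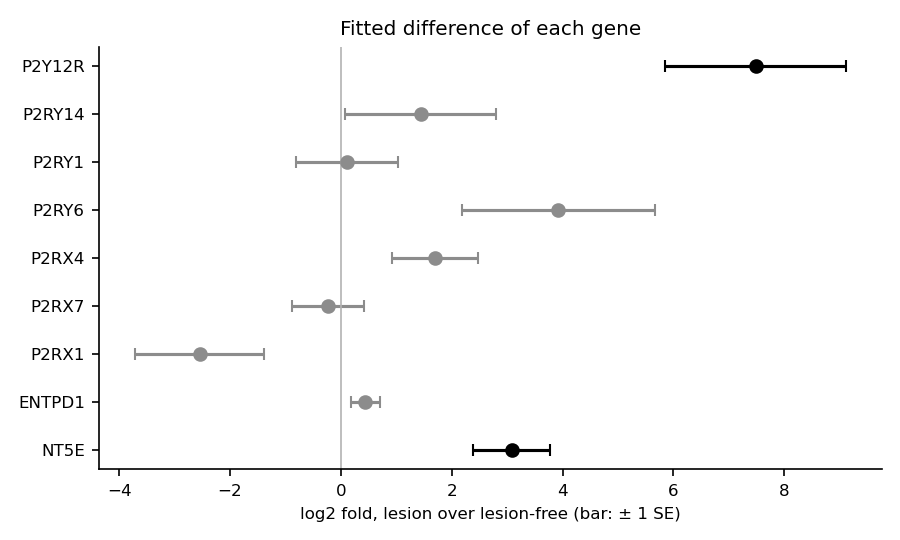
Fitted log2 fold, lesion over lesion-free, of the 9 listed genes with a row. Each dot is the estimate and each bar 1 standard error to either side, in black for genes called and grey for the others, from P2Y12R at 7.49 to P2RX1 at -2.55, and the bars of P2RY1 and P2RX7 include 0.

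The isoform table gave counts for 16 named ENTPD1 isoforms, 5 of them above 0, and 2 of these, ENTPD1-004 and ENTPD1-005, held nearly all of the gene's counts. ENTPD1-005 made up 70.2%, 37.5% and 46.5% of ENTPD1 isoform counts in lesion replicates 1, 2 and 3, against 27.8%, 35.5% and 43.8% in lesion-free replicates 4, 5 and 6. The 95% Wilson interval was 67.0% to 73.2% in lesion replicate 1 and 25.5% to 30.3% in lesion-free replicate 4. These intervals cover counting error only and leave out the error of dividing reads between isoforms. Lesion replicate 1 stood apart from the other 5 pools, which lay between 27.8% and 46.5%, and the groups overlapped.

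**Figure D3:**
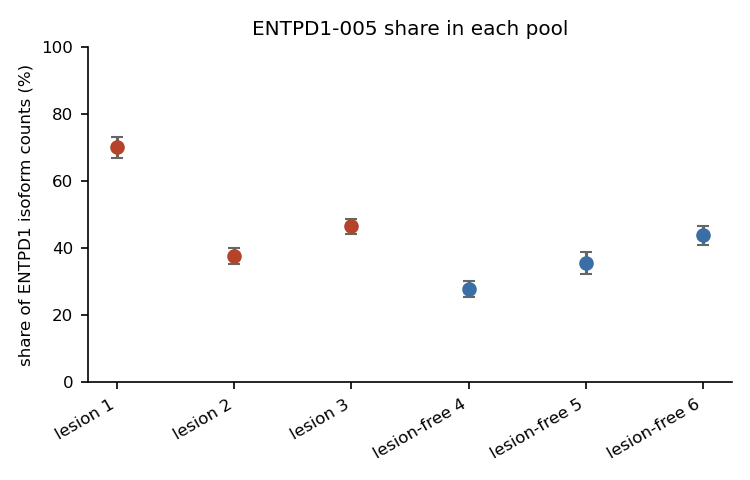
Share of ENTPD1 isoform counts given to ENTPD1-005, in percent, with lesion pools in red on the left and lesion-free pools in blue on the right. Dots are single pools and bars are 95% Wilson intervals, which cover counting error only. Lesion replicate 1 is the highest at 70.2%.

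For NT5E, the isoform NT5E-001 held 100%, 100% and 98.0% of isoform counts in the lesion pools, against 86.0%, 0% and 92.7% in the lesion-free pools. The 0% of lesion-free replicate 5 rested on 15 counts, with a Wilson upper limit of 20.4%. P2RX4, P2RY1 and P2RY14 had 1 isoform each.

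In the reference annotation, P2RY14, P2RY13 and P2RY12 lie on chromosome 13 within the longer gene MED12L. The row matched to MED12L had 0 counts in all 6 pools. P2RY13, another ADP receptor and direct neighbour of P2RY12, had 0, 10 and 9 counts in lesion pools and 0 counts in every lesion-free pool, too few to be tested. P2Y12R and P2RY14 thus sit in the same cluster. Scaled to depth, both were lowest among lesion pools in replicate 2, at 15.2 CPM for P2Y12R and 0.892 CPM for P2RY14. The highest lesion-free pool was replicate 6 for P2Y12R, at 0.203 CPM, and replicate 5 for P2RY14, at 2.16 CPM.

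Among tested genes that carry a symbol, the 5 closest to P2Y12R in pattern over the 6 pools were sought. Closeness was the root mean square difference of log2 CPM centred on the lesion-free mean. They were SPP1 at 0.747, CYTIP at 0.749, TCN1 at 0.814, C16orf54 at 0.925 and TREM2 at 0.931 log2 units. Genes without a symbol were left out of this ranking. SPP1 encodes osteopontin, a secreted matrix and cytokine protein, and TREM2 a lipid-sensing receptor of macrophages and microglia. CYTIP encodes a cytohesin-binding protein of leukocytes and TCN1 a vitamin B12-binding protein. SPP1 had 20426 counts over the lesion pools, against 115 over the lesion-free pools. CYTIP had 380 counts in lesion and 1 in lesion-free pools, TCN1 237 and C16orf54 224 in lesion and 0 in lesion-free pools, and TREM2 386 in lesion and 0 in lesion-free pools. With lesion-free pools at or near 0 for CYTIP, TCN1, C16orf54 and TREM2, their likeness rests mainly on the height of the 3 lesion pools. That height is taken over a level set largely by the 0.5 counts added before the log. CYTIP, TCN1, C16orf54 and TREM2 reached the filter level in lesion pools only. P2Y12R was listed by this same contrast, so the ranking is a description and no test of shared regulation or cell source. SPP1 lay above the floor on the lesion-free side, at 1.73, 4.31 and 6.40 CPM in replicates 4, 5 and 6.

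Beyond the listed genes, 69 other genes of purinergic signalling were looked up. Of these, 57 were matched to a row, 48 had a count and 40 were tested. In the limma fit, 0 of the 40 were called higher and 0 lower, and 5 had an unadjusted p under 0.05: ENPP1, GNA15, PLCB2, PIK3CG and PIK3R5, all with a positive fold. Over all tested genes, 6.47% had an unadjusted p under 0.05 with a positive fold. By limma-trend 2 of the 40 were called higher, PLCB2 and GNA15, against 1.71% of all tested genes. With sample quality weights 1 was called higher, GNA15, against 1.82% of all tested genes. Groups did not overlap in 6 with lesion higher and 2 with lesion lower, against 10.4% and 9.01% of all tested genes. The median log2 fold of the 40 was 0.02, against -0.00 over all tested genes.

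**Figure D4:**
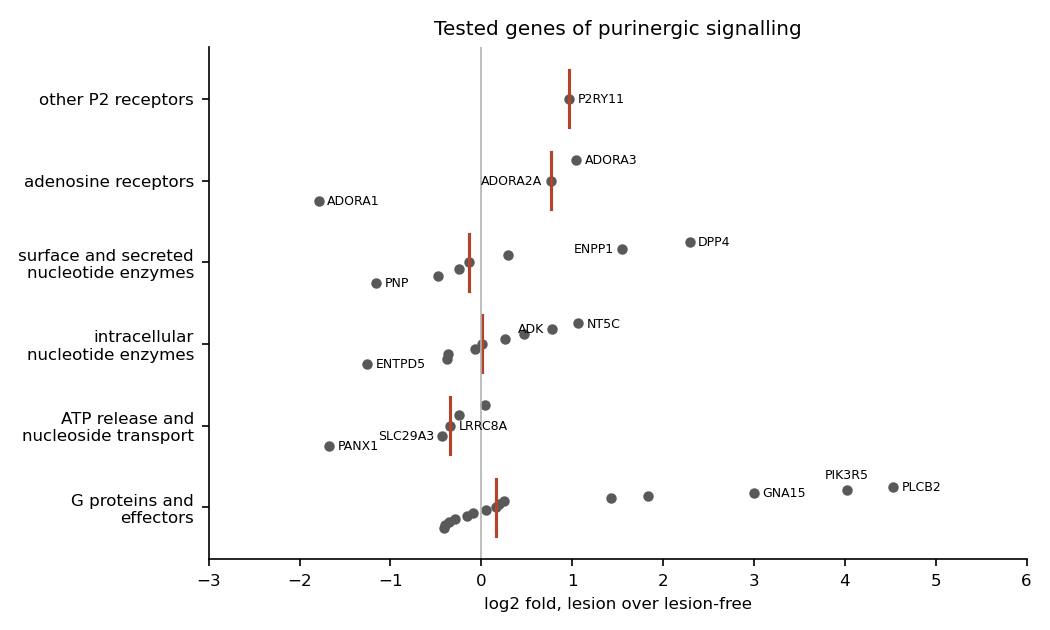
Fitted log2 fold, lesion over lesion-free, of the 40 tested purinergic genes outside the listed ones, by gene group from top to bottom. Each dot is a gene, the red line is the median of its group, and gene names mark up to 3 genes of largest fold in each group, with PLCB2 at 4.53 and ADORA1 at -1.79 at the ends. None of the 40 was called in the fit with voom weights.

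Of the other P2 receptors, 8 were listed and matched, and 1 was tested. P2RY11, an ATP receptor, had a log2 fold of 0.97 (SE 1.79) while its mean CPM was 1.09 in lesion and 1.19 in lesion-free pools. P2RX3 and P2RY4 had 0 counts in all pools.

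The adenosine receptors follow the step that NT5E catalyses. ADORA3 averaged 14.6 ± 6.67 CPM in lesion and 6.41 ± 2.93 CPM in lesion-free ones (SD, n = 3 each), with a log2 fold of 1.05 (SE 0.60) and an adjusted p of 0.563 by limma. Its symbol is carried by 2 rows of the table. ADORA2A had a log2 fold of 0.76 (SE 0.97) and ADORA1 of -1.79 (SE 1.64). All 3 adenosine receptors tested missed the threshold and had overlapping groups.

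Among 7 tested enzymes of the cell surface or secreted space, ENPP1, which splits ATP into AMP and pyrophosphate, had 95.7, 24.2 and 32.4 CPM in lesion pools, against 18.9, 12.3 and 9.75 CPM in lesion-free pools. Its groups did not overlap, lesion replicate 1 was the highest, and its log2 fold was 1.55 (SE 0.52; adjusted p = 0.259 by limma). DPP4, a peptidase that binds adenosine deaminase, had a log2 fold of 2.29 (SE 1.72), and PNP, which cleaves inosine and guanosine, of -1.16 (SE 1.34). The median of this group was -0.13.

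Of 9 tested enzymes inside the cell, NT5C, a nucleotidase of the cytosol, averaged 14.4 ± 3.39 CPM in lesion and 6.81 ± 3.26 CPM in lesion-free ones (SD, n = 3 each) without overlap, and had a log2 fold of 1.06 (SE 0.51; adjusted p = 0.476 by limma). ADK, which phosphorylates adenosine to AMP, had a log2 fold of 0.78 (SE 0.78), and ENTPD5, a nucleoside diphosphatase of the endoplasmic reticulum, of -1.26 (SE 1.52). Of 5 tested genes of ATP release and nucleoside transport, PANX1, a channel through which ATP leaves cells, had a log2 fold of -1.68 (SE 2.07). LRRC8A, a subunit of the volume-regulated anion channel, was at -0.34 (SE 0.26) with lesion pools below lesion-free pools. SLC29A3, a nucleoside transporter of lysosomes, had 0, 175 and 255 counts in lesion pools, against 100, 85 and 79 counts in lesion-free pools. Its log2 fold was -0.43 (SE 1.16), and without lesion replicate 1 it was 1.00.

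The larger values lay among the 15 tested G proteins and effectors. PLCB2, a phospholipase C of blood cells, had 10.95, 16.6 and 22.3 CPM in lesion pools, against 3.56, 0 and 1.42 CPM in lesion-free pools, a log2 fold of 4.53 (SE 1.42; adjusted p = 0.211 by limma). PIK3R5, the regulatory subunit of phosphoinositide 3-kinase gamma, averaged 10.3 ± 1.99 CPM in lesion and 1.22 ± 1.06 CPM in lesion-free ones (SD, n = 3 each), a log2 fold of 4.02 (SE 1.41; adjusted p = 0.275 by limma). GNA15, a G protein alpha subunit of blood cells, averaged 16.3 ± 6.61 CPM in lesion and 2.01 ± 1.28 CPM in lesion-free ones (SD, n = 3 each), a log2 fold of 3.00 (SE 0.90; adjusted p = 0.186 by limma). All 3 had groups that did not overlap. The median log2 fold of the 15 was 0.17.

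Markers of other cell types moved beside these values. Summed macrophage markers were between 1221 and 2064 CPM in lesion pools, against 194 to 361 CPM in lesion-free pools. Of 11 tested macrophage markers, 7 were called higher and 0 lower, against 0.968% and 0.0771% of all tested genes. Markers shared by microglia and some macrophages summed to between 114 and 223 CPM in lesion and 56.8 to 91.0 CPM in lesion-free pools, with 0 of 4 called by limma (2 at an unadjusted p under 0.05) and SALL1, which marks microglia, at 0 in all pools. T and NK cell markers summed to between 27.7 and 72.2 CPM in lesion and 0 to 9.17 CPM in lesion-free pools, with 0 of 4 called by limma (1 at an unadjusted p under 0.05). Most of the lesion sum was NKG7, a granule protein of cytotoxic lymphocytes, at 53.0, 18.3 and 56.2 CPM in lesion pools, against 2.26, 0 and 1.83 CPM in lesion-free pools. Platelet markers summed to 0, 4.37 and 5.29 CPM in lesion pools, against 3.56, 5.63 and 2.95 CPM in lesion-free pools, and PPBP, GP1BB and GP5 were at 0 in all pools.

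Smooth muscle markers summed to between 30471 and 43947 CPM in lesion pools, against 70360 to 79885 CPM in lesion-free pools. Of 7 tested smooth muscle markers, 2 were called lower and 0 higher, against 0.0771% and 0.968% of all tested genes. Endothelial markers summed to between 441 and 592 CPM in lesion and 329 to 375 CPM in lesion-free pools, with 0 of 8 called by limma (2 at an unadjusted p under 0.05). The largest part of that sum was PECAM1, at 263, 334 and 278 CPM in lesion pools, against 185, 175 and 153 CPM in lesion-free pools. VWF averaged 16.3 CPM in lesion and 17.3 CPM in lesion-free pools. Fibroblast markers summed to between 1837 and 2536 CPM in lesion and 2386 to 3127 CPM in lesion-free pools, with 0 of 9 called by limma (3 at an unadjusted p under 0.05). The part of these cell types, platelets included, in the values of P2Y12R, NT5E, P2RX4, P2RY6, ENTPD1, PLCB2, PIK3R5 and GNA15 was not tested.

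**Figure D5:**
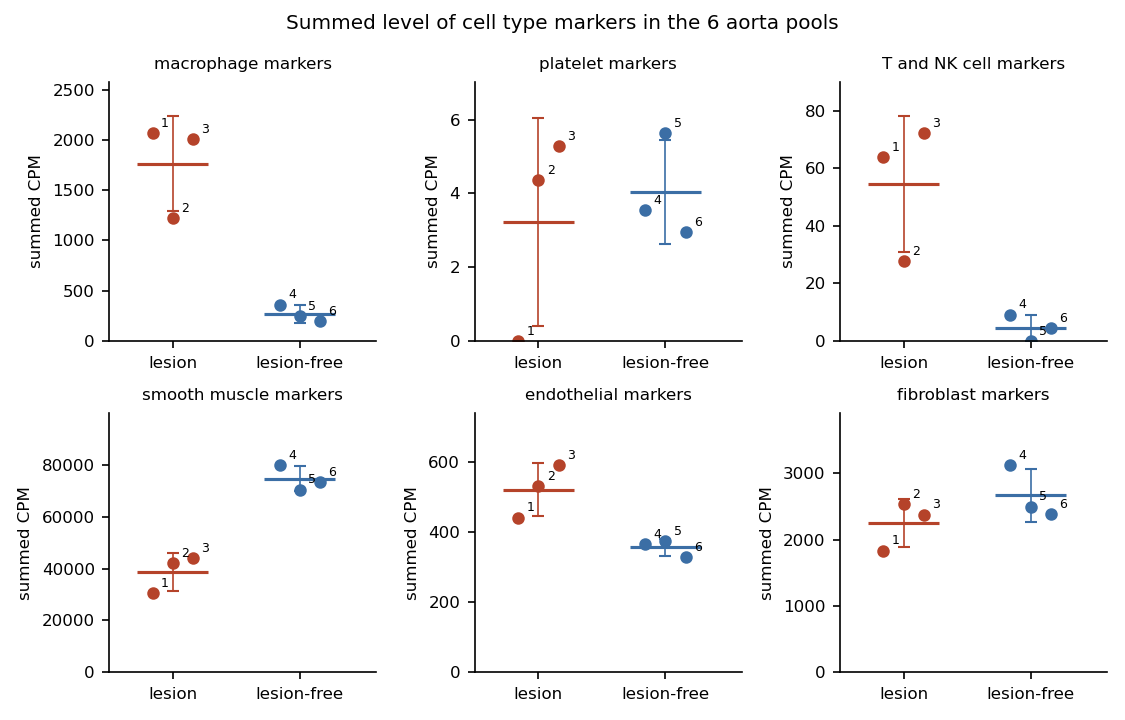
Summed CPM of cell type marker lists in each pool, with lesion pools in red on the left and lesion-free pools in blue on the right. Each dot is a pool labelled with its replicate number, the line is the mean and the bar the SD (n = 3). Macrophage markers reach 1221 to 2064 CPM in lesion pools and 194 to 361 CPM in lesion-free pools, and smooth muscle markers are lower in lesion pools.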

How the data were processed

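The authors deposited a gene table and an isoform table of whole-number read counts for 6 pools, written with commas in large numbers, which were removed. RSEM 1.3.0 and edgeR are named, without a role, per the submitters' processing notes. An aligner and a build were not given in the sources used here, nor was the counting strand. RSEM estimates how reads split between isoforms or near-identical genes, and the tables hold no error for that estimate. Per the labels' protocols, RNA came from lyophilised, pulverised tissue, and libraries from a stranded total RNA kit.

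From the deposited counts, log2 CPM were computed with 0.5 counts added and trimmed-mean-of-M-values scaling (trimming 30% of M and 5% of A). Lesion was compared with lesion-free with limma 3.58.1 (R 4.3.3), using voom weights and robust empirical Bayes, on 11673 genes with at least 1.002 CPM in 3 pools and 15 counts in all. P-values are two-sided, with Benjamini-Hochberg adjustment over those 11673 genes and a threshold of 0.05. The procedure was tested on simulated data. No negative binomial model was run, since the values with their commas were not classed as plain counts. Pools of 1 group differed by a chi-square per degree of freedom between 22.7 and 97.7, which is more than counting error alone gives. Whether pools shared RNA of the same animals cannot be told from this value. Exact intervals of count ratios and Wilson intervals of shares were computed in SciPy 1.17.1.

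A reference table of names matched 50.1% of identifiers, and a RefSeq gene table (assembly Sscrofa11.1) was used only for which genes neighbour or overlap each other, since the build of the files is not known. Named beyond the listed genes were, in each purinergic list, called genes and up to 3 with the largest absolute log2 fold. The 5 genes closest to P2Y12R among those with a symbol were also named. Genes outside this rule (PIK3CG, P2RX2, P2RX3, P2RX5, P2RY4, P2RY13, GPR17, ENPP3, ENTPD3, IFT81, MED12L) were named after their values were seen. So were all marker genes named singly beside their list sums, such as NKG7, SALL1, PECAM1 and the platelet markers. Members and lists were chosen with earlier results of these data known. Alternatives were other filters, scalings and weights, isoform sums, and each pool left out.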

Additional observations from a re-analysis of the deposited data

How the results depend on the processing

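Genes called higher in lesion pools, 113 in all, came to 171 with no low-count filter, 200 by limma-trend on log2(CPM + 1) and 213 with sample quality weights. Genes called lower, 9 in all, came to 17, 14 and 40 under the same 3 settings. With 1 pool left out at a time, between 54 and 150 genes were called higher and between 3 and 36 lower: omitting lesion-free replicate 6 gave 54 and 3, and omitting lesion-free replicate 5 gave 63 and 4. Lower calls numbered 5 when lesion replicate 1 was omitted, 36 when lesion replicate 3 was, and 15 when lesion-free replicate 4 was. Of the listed genes, 2 were called higher, against 1 without the robust option, where NT5E missed at an adjusted limma p of 0.0556, and 0 with isoform counts summed, where adjusted limma p-values were 0.0529 for P2Y12R and 0.0503 for NT5E. That sum takes in transcripts named P2Y12R-201 that are not in the gene's count. Leaving out a pool gave between 0 and 1: NT5E alone when lesion replicate 1 or 2 was omitted, and 0 when lesion replicate 3 or any lesion-free pool was. Other purinergic genes called higher, 0 in all, were 2 by limma-trend and 1 with sample quality weights. The causes of these shifts were not tested, except that leaving out a pool removes a sample. None of the log2 folds of the named genes that were called changed sign. With a pool left out, the uncalled folds of P2RY1 ran between -0.20 and 0.38, of P2RX7 between -0.82 and 0.23, and of P2RY11 between -0.74 and 2.01. Plain library totals moved the median log2 fold of all genes to 0.16, and the log2 fold of P2RX7 was -0.10 there. Of 114 alternative values of the 9 listed genes, 101 kept their side of the threshold and 13 lost it. All 13 belonged to P2Y12R and NT5E, the 2 genes called, and the other listed genes had no call to lose. The listed genes were chosen by this contrast in these same pools, so the refits describe how the calls shift and are no test of the genes.

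No paired analysis was possible because the lesion pools (FH line) and the lesion-free pools (WMS normal) came from different animals. The 3 pools per group limit all comparisons, and an exact permutation test of 3 against 3 pools cannot go below p = 0.1. P2RY6 and P2RY13 rest on few counts in every pool. P2RX1 was at 0 in lesion replicate 1 only, and the cause was not tested.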

Other observations

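Other purinergic genes reached the filter level in too few pools to be tested. ENPP3, a surface enzyme that hydrolyses nucleotides, had 48, 0 and 5 counts in lesion pools and 0 in every lesion-free pool. P2RX5, an ATP-gated channel, had 12 counts in lesion replicate 3 and 0 elsewhere, and P2RX2 had 0, 9 and 12 counts in lesion pools, against 0, 29 and 0 in lesion-free pools. GPR17, a relative of the P2Y receptors, had 0, 7 and 4 counts in lesion pools, against 0, 19 and 12 counts in lesion-free pools.

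In the isoform table, 3754 isoform names were carried by more than 1 transcript among 27927 isoforms. The name P2Y12R-201 stood on 4 transcripts, of which 1 equalled the gene's count in every pool, and the others held at most 7 counts. The name ENTPD3-201 also stood on 4 transcripts. The one equal to the ENTPD3 gene count had 573, 1251 and 1889 counts in lesion pools and 1753, 1380 and 1845 counts in lesion-free pools, while another had 5113, 8098 and 10516 counts in lesion pools and 14487, 8282 and 9060 counts in lesion-free pools. A sum over isoform names is therefore not the count of the gene for either.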
